A study of Mus musculus with 8 samples.

Results

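The insulin-like growth factor (IGF) axis was examined through the binding of the glucocorticoid receptor (GR) around 6 genes in mouse liver: Igf1, Igfbp1, Igfbp2, Igfbp4, Igfals and Ghr. GR binding was measured by chromatin immunoprecipitation followed by sequencing (ChIP-seq). Overlapping regions of the 6 GR peak lists were merged into 51431 sites, and the 80 sites centred within 50 kb of the annotated start of one of these genes were taken. Igf1 had 26 of them, Igfals 20, Igfbp4 10, Ghr 9, Igfbp1 8 and Igfbp2 7, and no site belonged to more than 1 of these genes. Each site exists because at least 1 list had a peak there, and among the merged sites only position chose these 80.

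Growth hormone from the pituitary acts on the liver through the growth hormone receptor and the kinase JAK2, and the transcription factor STAT5 then drives Igf1. IGF1 circulates in complexes with IGF binding proteins, and the acid-labile subunit encoded by Igfals prolongs the life of the large complex. Fasting lowers insulin and so lets FOXO1, a forkhead transcription factor, enter the nucleus, and Igfbp1 is a classic gene that both FOXO1 and glucocorticoids act on in liver.

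All mice were wild-type adult male C57BL/6J on regular chow, and livers were taken at ZT12, when the dark phase begins. The ctrl. mice had free access to food and then, in the last week, food at night only. The cal. res. mice had their food reduced in weekly steps to the stronger of the study's restriction levels and received it daily at the start of the dark phase. The CORT mice were fed at night only, like the ctrl. mice, and received corticosterone by daily intraperitoneal injection for a week. Each group had 2 GR libraries, which the methods describe as biological replicates, and 1 further peak list for FOXO1 came from 2 cal. res. libraries merged by the authors, so FOXO1 has no replicates and no ctrl. or CORT counterpart. The labels name no vehicle injection for the ctrl. mice, so injection and corticosterone cannot be told apart here.

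The GR lists held between 12458 distinct regions, in ctrl. library 2, and 39136, in CORT library 2. Read depth was not given in the peak lists, and the number of regions can move with it. The lowest summit in a list held between 5 and 9 fragments, as rebuilt from the fold enrichment and p-value of each peak. The library names in the labels came in a pair of styles, which ctrl. library 2 shared with the cal. res. libraries and ctrl. library 1 with the CORT libraries. The labels do not call these batches, and between cal. res. and CORT the name style and the treatment cannot be told apart. Tissue labels were checked with genes that mark hepatocytes (Alb, Apoa1, Ttr, Tat and Hnf4a), all 5 of which had a site with a peak in every GR library, 29 such sites in all. Of 5 genes that mark other tissues, 3 had such a site, 4 sites in all. A library of whole liver cannot tell binding in more cells from more binding per cell.

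Peak height is given below as a percentile. For each library, the distinct regions of its own list were ranked by fold enrichment (summit fragments over local background), so that 100 is the top of that list and a percentile compares a site with all other regions of the same library. A site counted as held by a group if neither of the group's 2 libraries lacked a peak at it.

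Across the 80 sites, the ctrl. libraries had a peak at 52 and 33 sites, the cal. res. libraries at 40 and 40, and the CORT libraries at 58 and 66. The ctrl. group held 31 sites, cal. res. 35 and CORT 50. Of all 51431 sites in the genome, 21.4% were held by ctrl., 27.9% by cal. res. and 43.7% by CORT, so the 6 genes followed the order of the whole lists. All 3 groups held 27 of the 80 sites, against 15.7% of all sites. The 6 genes therefore had more of the sites shared by every library, 33.8% of theirs, and fewer with a peak in a single list, 23.8% against 37.4% of all sites.

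**Figure D1:**
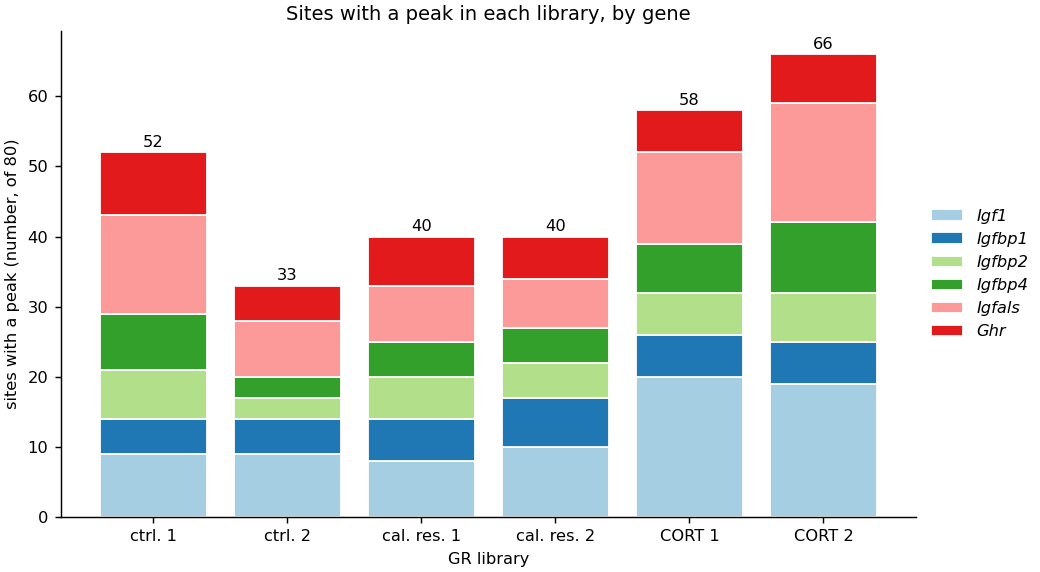
Number of the 80 sites with a peak in each GR library (bars, starting at 0), stacked by gene. The ctrl. libraries stand at 52 and 33, the cal. res. libraries at 40 each, and the CORT libraries at 58 and 66.

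Relative to the length of each list, the sites of the 6 genes took up 1.57 and 3.13 regions per 1000 in the ctrl. libraries, 2.38 and 2.56 for cal. res. and 2.24 and 1.81 for CORT. The ctrl. libraries spanned the values of both other groups. Cal. res. averaged 0.117 regions per 1000 more than ctrl. (exact permutation test, two-sided, p = 1), and the CORT mean was lower than ctrl. by a difference of -0.325 (exact permutation p = 1). The cal. res. mean was 0.443 above CORT, with both cal. res. libraries above both CORT libraries (exact permutation p = 0.333). With 2 libraries against 2, no exact test can go below 0.333, so the design cannot separate these values from the spread between libraries.

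Cal. res. held 6 sites that ctrl. did not hold, at Igfbp2 (2), Igfbp4 (2), Igfbp1 (1) and Ghr (1), where 11.5% of all sites were gained in this sense. CORT held 21 that ctrl. did not hold, against 24.3% of all sites. These gains leaned on the shortest list. Ctrl. library 1 already had a peak at 5 of the 6 sites gained in cal. res. and at 12 of the 21 gained in CORT, whereas ctrl. library 2 had a peak at 0 of the 6 and 1 of the 21. Without ctrl. library 2, cal. res. gained 1 site and CORT 9. When every list was shortened to its 12458 regions of smallest p, CORT gained 2 and cal. res. 8. Sites with peaks in CORT lists alone numbered 20, of which 13 lay at Igf1, against 25.9% of all sites. These 20 were low peaks, none above percentile 67.8 or above 16 fragments at the summit.

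**Figure D2:**
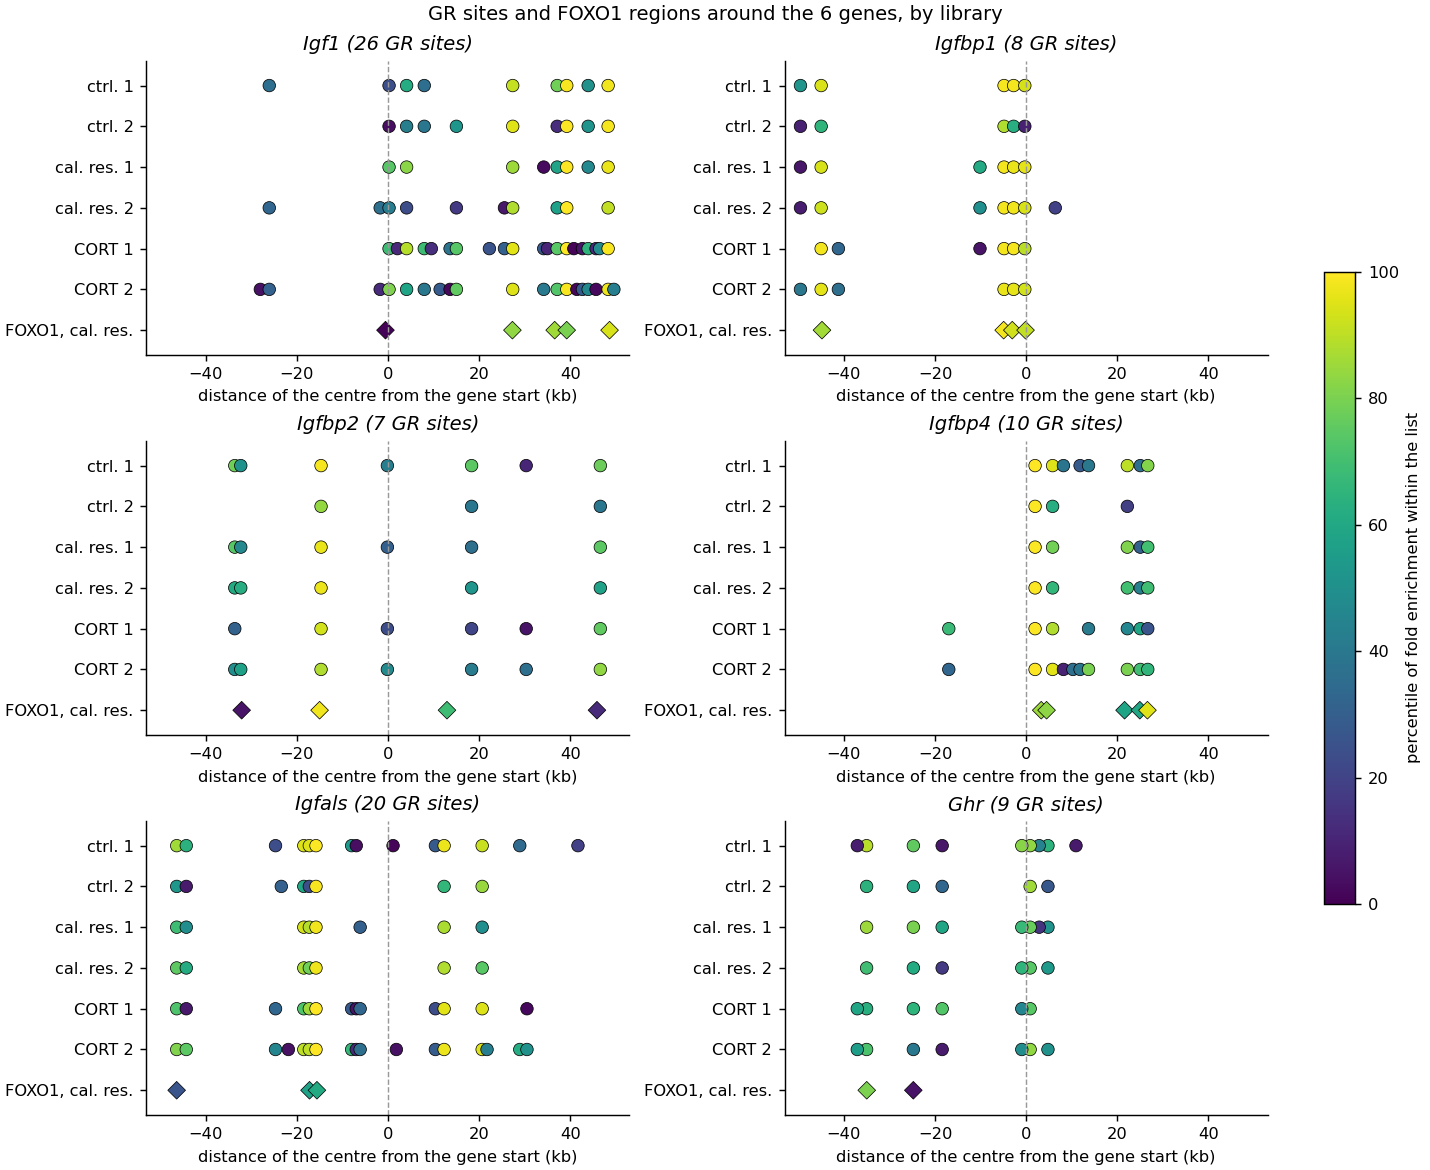
Position and height of every peak around the 6 genes. The x axis gives the distance of the site's centre from the gene start in kb (positive values lie in the direction of transcription), rows are the 6 GR libraries and the FOXO1 list, and colour gives the within-list percentile of fold enrichment. The tallest peaks stand in the same columns in all libraries, and the extra columns of the CORT rows at Igf1 are low.

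Igf1 encodes the circulating ligand of the axis. It lies on chromosome 10 at chr10:87858265-87937042 (mm10, plus strand), and 6 of its 26 sites had a peak in all 6 libraries. As many as 26 sites were found at 0.296% of the 21951 protein-coding genes, whose median was 3. The leading site, 39.2 kb into the gene in an intron (chr10:87896945-87898076), stood at percentiles 98.9 and 99.8 for ctrl., 99.6 and 99.5 for cal. res. and 99.5 and 99.1 for CORT, and its summits lay within 27 bp of each other. This site was thus near the top of every list. Its sequence is shown because it is the highest GR peak at the gene and a FOXO1 region at percentile 79.9 had its summit 25 bp away. The 200 bases around the summit (chr10:87897414-87897613, plus strand) held none of the motifs searched, so no capitals appear:
Igf1 +39.2 kb: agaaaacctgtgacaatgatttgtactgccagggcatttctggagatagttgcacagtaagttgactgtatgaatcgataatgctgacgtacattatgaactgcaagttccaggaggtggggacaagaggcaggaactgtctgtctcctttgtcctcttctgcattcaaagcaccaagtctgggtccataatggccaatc

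A pair of further intronic sites of Igf1 stood high in every library. At 48.3 kb the percentiles were 97.8 and 98.8 for ctrl., 96.8 and 90.7 for cal. res. and 98.9 and 97.6 for CORT. At 27.4 kb they were 91.2 and 95.3, 85.4 and 87.9, and 95.5 and 94.8 in the same order. Both cal. res. libraries lay below all 4 others at these sites in the full lists. Among the sites shared by all libraries, the scale of the rank tests below, this order did not hold. There, cal. res. library 1 (91.4) lay above ctrl. library 1 (90.45) at 48.3 kb. At 27.4 kb, cal. res. library 2 (75.0) lay above ctrl. library 1 (65.9). FOXO1 regions overlapped the 48.3 kb and 27.4 kb sites, at percentiles 94.0 and 83.4. Another intronic site at 37.15 kb, with a FOXO1 region at 85.6, ranked lower in GR, from 12.5 in ctrl. library 2 to 78.2 in ctrl. library 1.

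The site over the Igf1 start (chr10:87857317-87859738) looked different. It stood at percentiles 24.2 and 3.62 for ctrl., 73.7 and 41.8 for cal. res. and 68.6 and 80.5 for CORT, so both ctrl. libraries lay below all others. Its summit held 16 and 17 fragments for ctrl., 28 and 17 for cal. res. and 18 and 32 for CORT, which are small counts. The FOXO1 region there was among the lowest of its list, at percentile 0.688. The site at 4.11 kb, over another annotated start, ranged from 23.2 to 88.7 with no order by group.

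Among sites that not all groups held, a pair of intronic sites was held by ctrl. and CORT but not cal. res. At 7.99 kb the ctrl. libraries stood at 35.6 and 39.4 and the CORT libraries at 68.7 and 39.9, with no cal. res. peak. At 43.95 kb ctrl. stood at 50 and 51.9 and CORT at 64.6 and 46.6, while cal. res. library 1 had a peak at 46.9. No library exceeded 68.7 at either site. The 5 Igf1 sites held by CORT alone were intronic too. The tallest, at 15.0 kb, stood at 73.6 and 75.5 in CORT, but ctrl. library 2 (52.4) and cal. res. library 2 (16.9) also had a peak there. At 34.2 kb the CORT values were 27.4 and 40.9, with a cal. res. library 1 peak at 2.95. The sites at 13.65, 42.7 and 45.7 kb had peaks in the CORT libraries only, at percentiles between 1.99 and 38.1.

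Igfbp1 encodes a binding protein that hepatocytes make rapidly when insulin falls and that holds IGF1 away from its receptor. It lies at chr11:7197782-7202546 (plus strand). All 4 of its sites with a peak in every library were overlapped by FOXO1, and 1.23% of protein-coding genes had as many such sites. The leading site, at -4.85 kb (upstream) in intergenic sequence (chr11:7192484-7193373), stood at percentiles 98.6 and 88.2 for ctrl., 98.4 and 98.4 for cal. res. and 98.1 and 96.6 for CORT. The FOXO1 region over it was at percentile 98.3 of its list, the highest at these genes, and their summits lay 53 bp apart. Only ctrl. library 2 stood apart at this site. The sequence around the summit (chr11:7192785-7192984, plus strand) is shown because GR and FOXO1 peaks were both near the top of their lists here. Capitals mark a match to the GR response element (AGAACA and TGTTCT separated by 3 bases, with at most 2 of the 12 letters differing), then a reverse-strand match to the insulin response motif TGTTTTG, while a C/EBP match nearer the summit is left in lower case:
Igfbp1 -4.85 kb: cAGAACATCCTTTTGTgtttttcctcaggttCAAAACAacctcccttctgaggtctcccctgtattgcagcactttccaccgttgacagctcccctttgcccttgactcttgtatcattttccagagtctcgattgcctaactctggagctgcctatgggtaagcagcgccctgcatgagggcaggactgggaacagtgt

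The promoter site of Igfbp1 (chr11:7196541-7198428, centre at -0.298 kb) stood at percentiles 93.5 and 9.10 for ctrl., 96.0 and 94.1 for cal. res. and 89.6 and 93.1 for CORT. It was high in 5 libraries and low in ctrl. library 2, where its summit held 9 fragments against 29 to 66 in the others. This library gave the lowest percentile at 14 of the 27 sites of the 6 genes with a peak in every library and at 47.4% of all such sites in the genome, so its low values were not particular to Igfbp1. It was also the lowest at the site at -2.76 kb, 62.7 against 96.5 to 98.8 elsewhere, and at the site at -44.98 kb in an intron of Adcy1, 65.2 against 92.4 to 98.1. Ctrl. library 2 had the shortest list, and the part of the list's length in these values was not tested. FOXO1 regions lay at the promoter (percentile 90.7, summit 4 bp from that of GR), at the -2.76 kb site (92.8, 14 bp) and at the Adcy1 site (86.2, 650 bp). The promoter is shown because the insulin response element of Igfbp1 is the textbook FOXO1 element, as RefSeq gives it for GRCm38.p6 up to the first annotated exon (chr11:7197537-7197781, plus strand). Capitals mark the reverse-strand match to TGTTTTG (an HNF1 match is left in lower case), a motif that 6.28% of all RefSeq promoters held in their 300 bases:
Igfbp1 promoter: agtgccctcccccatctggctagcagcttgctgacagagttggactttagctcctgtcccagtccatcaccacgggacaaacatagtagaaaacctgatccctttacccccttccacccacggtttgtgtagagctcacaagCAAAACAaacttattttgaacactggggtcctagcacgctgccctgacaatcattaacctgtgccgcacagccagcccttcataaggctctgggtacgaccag

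A small site at -10.1 kb from Igfbp1, in an intron of Gm11985, was held by cal. res. alone. It stood at 60.5 and 49.5 in cal. res. and at 5.16 in CORT library 1, and had no peak in the ctrl. libraries or in CORT library 2. It was the only one of the 80 sites that cal. res. held and at which neither ctrl. library had a peak, and no FOXO1 region overlapped it. Its cal. res. summits held 18 and 14 fragments. The site at -49.5 kb was held by ctrl. (52.1 and 9.10) and cal. res. (5.85 and 7.67) and had a peak in CORT library 2 (39.5). The site at -41.2 kb was held by CORT alone, at 33 and 36.2.

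Igfbp2, which encodes the binding protein that rises in low-insulin states in liver, lies at chr1:72824503-72852474 (plus strand). Its leading site, at -14.7 kb in intergenic sequence (chr1:72809178-72810514), stood at percentiles 98.7 and 83.9 for ctrl., 96.6 and 97.0 for cal. res. and 93.1 and 88.2 for CORT. Both cal. res. libraries lay above both CORT libraries, and ctrl. spanned all of them. The FOXO1 region there was at percentile 98.0, with its summit 11 bp from the GR summit. The site is therefore shown as another at which both factors ranked near the top (chr1:72809454-72809653, plus strand). No motif match was found in it:
Igfbp2 -14.7 kb: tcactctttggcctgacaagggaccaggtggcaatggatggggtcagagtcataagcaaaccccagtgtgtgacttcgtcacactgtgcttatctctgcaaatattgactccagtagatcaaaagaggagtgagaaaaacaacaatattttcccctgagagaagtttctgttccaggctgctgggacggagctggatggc

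The site over the Igfbp2 start was low and uneven. It stood at 42.5 in ctrl. library 1, 30.1 in cal. res. library 1, and 23.3 and 47.4 in CORT, with no peak in the other libraries, so CORT alone held it. CORT alone also held the site at 30.3 kb (5.16 and 36.2, with ctrl. library 1 at 10.8). The site at -32.3 kb was held by cal. res. alone, at 46.9 and 62.4, but ctrl. library 1 (51.1) and CORT library 2 (56.8) stood in the same range, and a weak FOXO1 region (percentile 5.42) overlapped it. The neighbouring site at -33.6 kb was held by cal. res. (73.7 and 60.9) and CORT (31.5 and 48.9), with ctrl. library 1 at 78.5. At the site 46.6 kb downstream, in an intron of Igfbp5, percentiles ran from 39.4 in ctrl. library 2 to 83.4 in CORT library 2. Igfbp2 also had the only FOXO1 region with no GR site under it, 13.0 kb into the gene (chr1:72837206-72837738, percentile 68.8).

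Igfbp4, which encodes an inhibitory binding protein that proteases of the pappalysin family cleave, lies at chr11:99041244-99054392 (plus strand). Its leading site spanned 6466 bp over the gene start and into an intron (chr11:99039965-99046430) and stood at 99.7 and 99.5 for ctrl., 99.5 and 99.5 for cal. res. and 99.2 and 99.7 for CORT. It had the highest mean of the 80 sites, and the libraries differed by less than a percentile point. The length came from a single region of CORT library 2 that joined separate regions of the other libraries, but the highest summits of all 6 libraries lay within 57 bp of each other, inside the gene rather than at its start. FOXO1 had 2 regions in it, at percentiles 85.5 and 82.8. The adjacent site at 5.795 kb, over a second annotated start, stood at 94.8 and 62.8 for ctrl., 78.9 and 65.7 for cal. res. and 88.0 and 95.6 for CORT. Here both CORT libraries lay above both cal. res. libraries.

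Downstream of Igfbp4, in exons of Tns4, a pair of sites was held by both groups other than ctrl., with a peak in ctrl. library 1 but none in ctrl. library 2. The site at 26.7 kb stood at 69.7 and 69.5 in cal. res., 26.3 and 65.3 in CORT, and 81.6 in ctrl. library 1, and its FOXO1 region was at percentile 95.2. The site at 25.0 kb stood at 30.1 and 43.1 in cal. res., 58.4 and 69.4 in CORT, and 35.6 in ctrl. library 1, with FOXO1 at 59.2. Both CORT libraries thus lay above both cal. res. libraries at the nearer site and below them at the farther. CORT alone held the sites at 13.7 kb (41.2 and 80, ctrl. library 1 at 39.9) and at -16.98 kb over the start of Top2a (67.8 and 33).

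Igfals encodes the acid-labile subunit, which is made in hepatocytes under growth hormone. The annotated gene (chr17:24865997-24882010, plus strand) begins 12.3 kb before the start of its basic protein-coding transcript, so the window is centred upstream of that start, and the window also holds the starts of Hagh, Fahd1, Nubp2, Spsb3, Eme2, Mrps34 and Nme3. The leading site of the window, at -15.8 kb (chr17:24849477-24850978), lay over the starts of Fahd1 and Hagh. It stood at 99.3 and 99.2 for ctrl., 98.0 and 97.3 for cal. res. and 99.7 and 99.8 for CORT, with a FOXO1 region at 60.7. The 3 groups did not overlap there and spanned under 3 percentile points.

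The site over the Igfals transcript start (chr17:24877103-24879564) stood at 97.2 and 65.8 for ctrl., 87.2 and 88.2 for cal. res. and 95.6 and 97.0 for CORT. Both CORT libraries lay above both cal. res. libraries, ctrl. spanned them, and no FOXO1 region overlapped the site. A RefSeq promoter of Igfals is shown because growth hormone is known to act on the Igfals promoter through STAT5. It is given up to the first annotated exon within its window (chr17:24877981-24878214, plus strand, GRCm38.p6), and the annotated gene begins upstream of it. The other RefSeq promoter kept for this gene (chr17:24877594-24877655, not shown) also held a STAT5 match. Capitals mark the forkhead motif TGTTTAC and then the STAT5 motif TTCNNNGAA, which 3.65% and 8.30% of all RefSeq promoters held in their untrimmed 300 bases:
Igfals promoter: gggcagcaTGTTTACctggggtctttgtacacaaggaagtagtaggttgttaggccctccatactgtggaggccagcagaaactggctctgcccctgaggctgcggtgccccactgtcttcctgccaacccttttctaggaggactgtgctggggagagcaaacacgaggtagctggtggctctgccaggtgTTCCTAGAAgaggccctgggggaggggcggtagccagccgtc

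The site 20.7 kb downstream, over the starts of Nubp2 and Spsb3, stood at 91.5 and 84.4 for ctrl., 49.4 and 74.0 for cal. res. and 94.8 and 94.6 for CORT. Both cal. res. libraries were the lowest. The 6 sites that CORT alone held in the window were low, with CORT percentiles between 2.33 and 66.5. Ctrl. library 1 had a peak at 4 of them. Nearest to the annotated gene start, at 1.14 and 1.86 kb, lay sites with a peak in a single library each. These stood at 1.49 in ctrl. library 1 and at 4.46 in CORT library 2.

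Ghr encodes the growth hormone receptor and lies at chr15:3317760-3583492 on the minus strand. The leading site, over the gene start (chr15:3581638-3583596), stood at 83.3 and 85.7 for ctrl., 76.9 and 74.2 for cal. res. and 74.1 and 83.6 for CORT. Both cal. res. libraries lay below both ctrl. libraries in the full lists. Among the sites shared by all libraries, the scale of the rank tests below, they did not. There ctrl. stood at 44.2 and 79.5 and cal. res. at 50.9 and 53.5. No site of Ghr reached percentile 90 in a library, unlike the leading sites of the other 5 genes, each of which did in at least 4 of the 6. The leading site with FOXO1, at -35.01 kb (chr15:3618230-3618765), stood at 89.2 and 64.1 for ctrl., 85.3 and 69.2 for cal. res. and 63.3 and 71.8 for CORT, with FOXO1 at 80.1 and summits 6 bp apart. Its summit sequence is shown because it carried the smallest p of the rank tests below (chr15:3618380-3618579, given on the plus strand of the chromosome, against the direction of Ghr). Capitals mark the GR hexamer AGAACA, and a C/EBP match is left in lower case:
Ghr -35.01 kb: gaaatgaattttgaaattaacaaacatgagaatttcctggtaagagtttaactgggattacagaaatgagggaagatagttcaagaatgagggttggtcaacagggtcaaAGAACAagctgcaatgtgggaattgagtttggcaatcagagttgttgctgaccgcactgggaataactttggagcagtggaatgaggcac

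A site at -0.962 kb from the Ghr start was held by cal. res. (67.5 and 65.0) and CORT (45.8 and 49.0), and stood at 82.2 in ctrl. library 1 with no peak in ctrl. library 2. The site 4.78 kb into the gene was held by ctrl. (64.1 and 27.0) and cal. res. (51.3 and 54.2) and had a peak in CORT library 2 (50). The site at -37.05 kb was held by CORT alone, at 59.2 and 55.2, with ctrl. library 1 at 7.45. At each of these sites a group that did not hold it had a peak in 1 library.

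**Figure D3:**
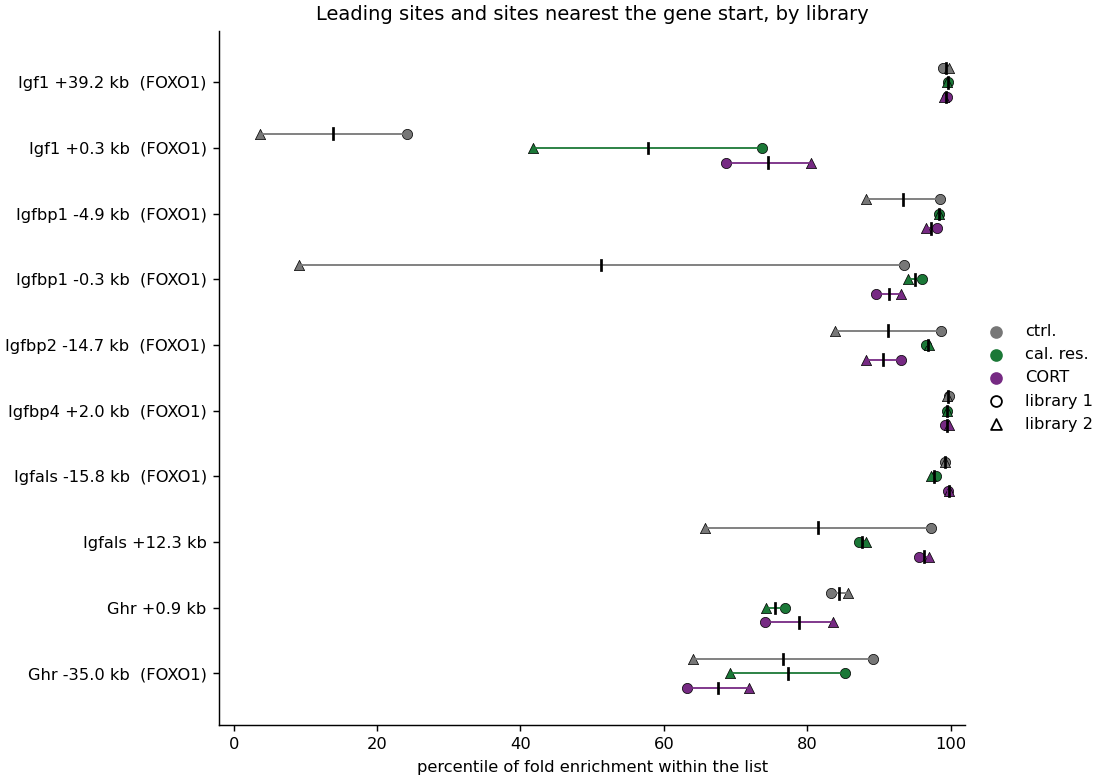
Within-list percentile of fold enrichment (x axis) at the leading site, the site nearest the gene start and the leading FOXO1 site of each gene. All were taken among the sites with a peak in all 6 libraries, so nearer sites without one are not plotted. Values are given for each library (circle, library 1, and triangle, library 2), with the group range as a line and the mean as a tick. At Igf1 +39.2 kb and Igfbp4 +2.0 kb all libraries lie at 98.9 or above, and at the Igfbp1 promoter ctrl. library 2 lies at 9.10.

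Ranks were then tested between groups at the sites where all 6 libraries had a peak, 8097 in the genome and 27 at the 6 genes. For this the percentile was taken among those 8097 sites, so that the length of a list no longer entered, and differences are in points of that scale. With limma and Benjamini-Hochberg adjustment over all 8097 sites, 0 of the 27 sites passed an adjusted p of 0.05 in any comparison, as did 0% of the 8097. At an unadjusted p under 0.05, 2 of the 27 passed between cal. res. and ctrl. (11.5% of all sites), 3 between CORT and ctrl. (13.3%) and 3 between cal. res. and CORT (17.2%). With log2 fold enrichment in place of ranks, limma called 5, 13 and 239 of the 8097 sites in the 3 comparisons after adjustment, and none of the 27. On that scale 4, 4 and 8 of the 27 had an unadjusted p under 0.05, against 12.9%, 13.6% and 21.7% of all sites. With the library name style as a term, the ranks gave 6, 2 and 7 of the 27, against 21%, 15.1% and 21.2%. Counts this small stood on either side of the share of all sites, depending on the scale and the model, and are no result about the 6 genes. A missed threshold does not show that ranks were alike, since 2 libraries a group leave wide errors.

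The Ghr site at -35.01 kb had the smallest unadjusted p. Among the shared sites it stood at percentiles 60.04 and 53.02 for ctrl., 65.3 and 47.1 for cal. res. and 21.8 and 20.1 for CORT. The CORT mean was lower than ctrl. (difference -35.6 points, SE 8.60, limma adjusted p = 0.241) and cal. res. exceeded CORT by 35.3 points (SE 8.60, adjusted p = 0.160). On this scale CORT did not overlap with the other groups, whereas in the full lists above it did. The neighbouring Ghr site at -24.75 kb stood at 29.3 and 47.4 for ctrl., 55.7 and 38.6 for cal. res. and 23.7 and 2.98 for CORT, and cal. res. was 33.8 points above CORT (SE 11.9, adjusted p = 0.257).

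At the Igf1 start the ctrl. libraries stood at 1.44 and 2.31, cal. res. at 46.1 and 21.9, and CORT at 28.4 and 34.1. Cal. res. was 32.1 points above ctrl. (SE 9.91, limma adjusted p = 0.355) and CORT 29.4 points above ctrl. (SE 9.91, adjusted p = 0.323). Both groups lay above ctrl. in both of their libraries, and the ctrl. libraries are shared by the 2 comparisons. At the Nubp2 and Spsb3 starts downstream of Igfals, ctrl. stood at 67.0 and 77.9, cal. res. at 21.5 and 53.2, and CORT at 82.98 and 76.3. Cal. res. was lower than ctrl. there (difference -35.1 points, SE 12.4, adjusted p = 0.412) and lower than CORT (-42.3 points, SE 12.4, adjusted p = 0.207). The intronic site of Igfbp2 at 18.4 kb stood at 27.7 and 28.4 for ctrl., 13.1 and 30.04 for cal. res. and 2.00 and 3.25 for CORT (CORT minus ctrl. -25.4 points, SE 8.01, adjusted p = 0.299).

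**Figure D4:**
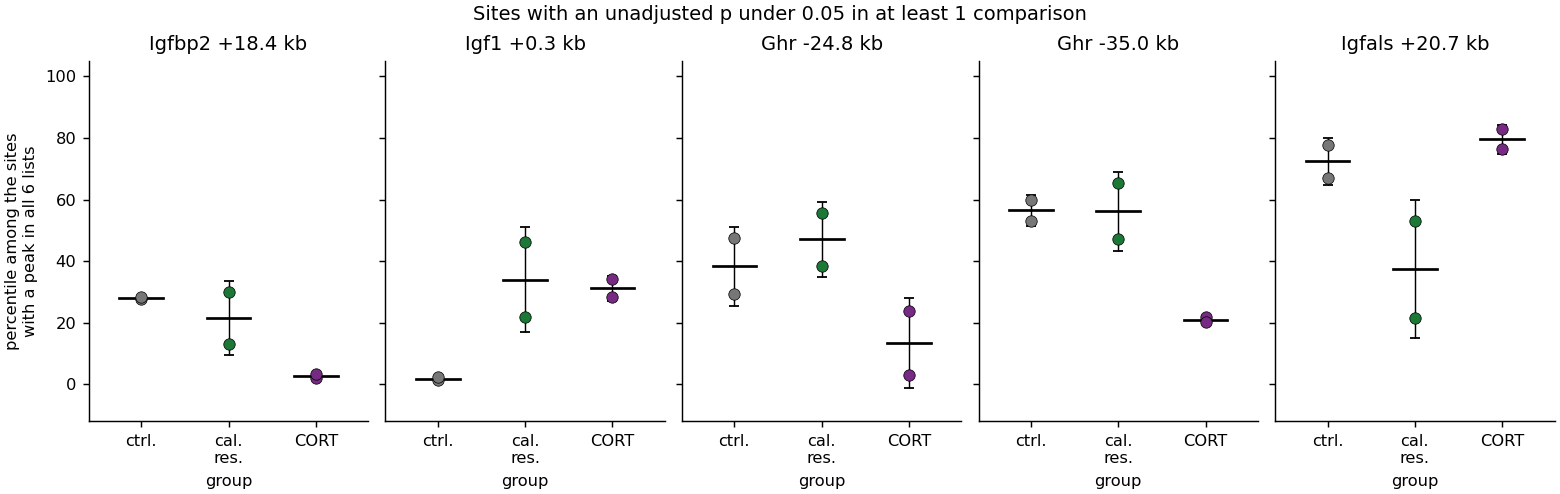
Percentile among the 8097 sites with a peak in all 6 libraries (y axis) at the 5 sites with an unadjusted limma p under 0.05, by group. Points are libraries, the thick line is the mean and the error bar the SD (n = 2). CORT lies below both other groups at the Ghr sites and at Igfbp2 +18.4 kb, and ctrl. lies below both other groups at Igf1 +0.3 kb.

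Counted without a test, both cal. res. libraries ranked above both CORT libraries at 11 of the 27 sites, against 29.3% of the 8097, and both CORT libraries above both cal. res. libraries at 5, against 25.6%. Cal. res. lay above ctrl. in this way at 6 sites (21% of all) and below at 2 (21%). CORT lay above ctrl. at 4 (19.2% of all) and below at 6 (19.6%). The median difference over the 27 sites was 6.70 points for cal. res. minus ctrl. (0.34 over all 8097), 1.65 for CORT minus ctrl. (-0.33) and 2.74 for cal. res. minus CORT (1.17). These medians were not tested and moved with the setting. The cal. res. minus ctrl. median was 6.21 without ctrl. library 1 and 0.179 without ctrl. library 2 (0.224 and -0.1475 over all sites). In lists of equal length it was 0.344 (0.305). The CORT minus ctrl. median was -3.37 without ctrl. library 2 (-0.805). With the name style as a term, the cal. res. minus CORT median was 17.9 (1.06).

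FOXO1 regions from cal. res. liver overlapped 21 of the 80 GR sites, 26.3%, against 13.9% of all sites. Overlap went with how many libraries had a peak. Of the 27 sites with a peak in all 6 libraries FOXO1 overlapped 18, against 50.7% of all such sites, and it overlapped none of the 19, 12 and 11 sites with a peak in 1, 2 and 3 libraries. All 21 were held by cal. res., the group in which FOXO1 was measured, but the 18 with a peak in every library were held by every group. CORT also held the FOXO1-overlapped Igfbp4 sites at 25.0 and 26.7 kb. The share held by cal. res. was not computed for all FOXO1-overlapped sites of the genome. In the other direction, 22 of the 23 FOXO1 regions near the 6 genes lay over a GR site, against 93.6% of all 8068 FOXO1 regions. The share of overlap of FOXO1 regions with GR sites was therefore near that of the genome.

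The summits of both factors lay close together at these genes. The median distance was 53 bp, 16 of the 21 were within 100 bp and 2 were more than 500 bp apart. These distances and the FOXO1 percentiles below were not computed for all overlapped GR sites of the genome. They therefore cannot be called particular to these genes. At 11 of the 21 sites the highest FOXO1 region stood above percentile 80 of the FOXO1 list, including all 4 at Igfbp1 and 3 of the 5 at Igf1. The weakest were at the Igf1 start (0.688), at Igfbp2 -32.3 kb (5.42), at Ghr -24.75 kb (5.42) and at Igfbp2 46.6 kb (12). All 6 genes had a site with a peak in every GR library and a FOXO1 region, as did 20.9% of protein-coding genes.

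**Figure D5:**
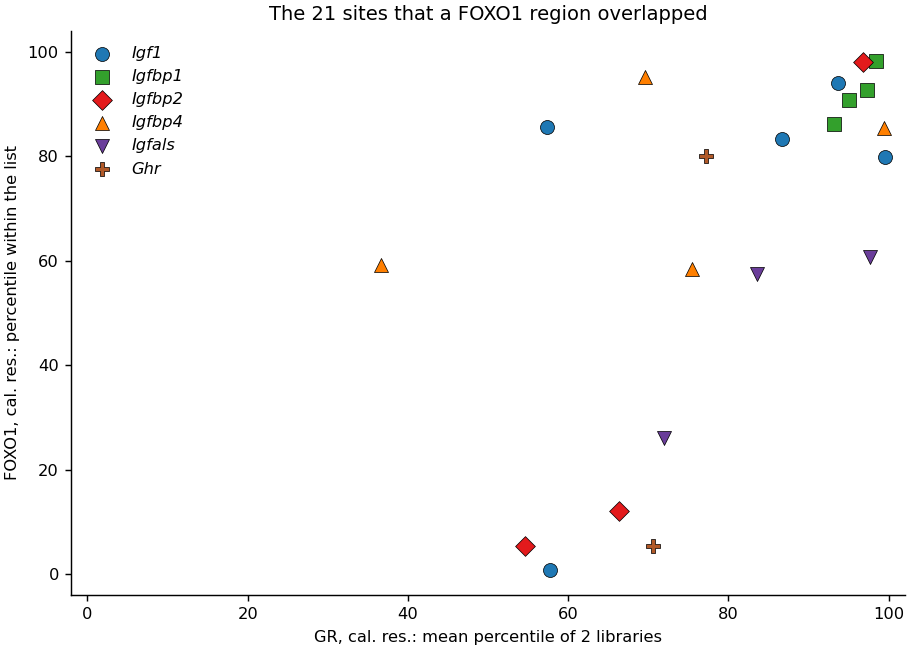
FOXO1 percentile within its list (y axis) against the mean GR percentile of the 2 cal. res. libraries (x axis) at the 21 sites that FOXO1 overlapped, by gene. The 4 Igfbp1 sites, the leading Igfbp2 site and Igf1 +48.3 kb lie at the upper right, with FOXO1 between 86.2 and 98.3. The leading Igfbp4 site lies close below them, with FOXO1 at 85.5.

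Short motifs were searched on both strands in the 200 bases around the top summit of each site. STAT5 motifs (TTCNNNGAA) were found at 12 of the 80 sites, 15%, against 8.16% of 51428 sites, and 6 of the 12 lay at Igf1. Among the sites with a peak in all 6 libraries they were found at 3 of 27, against 9.29%. The insulin response motif (TGTTTTG) was found at 7 sites (8.75%, against 6.57%), 3 of them at Igfbp1. The GR hexamer (AGAACA) was found at 13 sites (16.2%, against 18.4%), the forkhead motif (TGTTTAC) at 4 (5%, against 5.19%), the C/EBP motif (TTGCNNAA) at 15 (18.8%, against 15.1%) and the HNF1 motif (TTAATNATT) at 3 (3.75%, against 2.04%). The full GR response element, each side of which can be the hexamer, was found at 2 sites (2.5%, against 3.35%), namely Igfbp1 -4.85 kb and Igfals -21.8 kb. The HNF4 motif was found at 0 of the 80, against 1.47%. Median GC content was 48.8% at these sites and 49% at all sites. A match is a description of the letters and not a measured binding site of the named factor.

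Other genes of the pathway were listed with the 6: 24 genes for ligand and binding proteins, receptors, signalling, inhibitors, adaptors and proteolysis. Of these, 21 had a GR site within 50 kb (73.3% of protein-coding genes did), and Igf1r, Grb10 and Stc2 had no site. A site with a peak in all 6 libraries and a FOXO1 region was found at 13, against 20.9% of protein-coding genes. Genes that share a site with each other or with the 6 are each counted. CORT held more sites than cal. res. at 13 of the 24, against 44.7% of protein-coding genes, and fewer at 3, against 3.36%. Cish, which encodes a STAT5-induced inhibitor of growth hormone signalling, had the highest such site, 1.70 kb from its start. It stood at 96.2 and 98.3 for ctrl., 97.3 and 89.6 for cal. res. and 99.9 and 98.2 for CORT, with FOXO1 at 71.1. Socs2, a feedback inhibitor of the growth hormone receptor, had one at -12.8 kb, at 95 and 94.1 for ctrl., 95.5 and 97.0 for cal. res. and 97.8 and 93.9 for CORT, with FOXO1 at 94.1. At Cish both CORT libraries lay above both cal. res. libraries, and at Socs2 both cal. res. libraries lay above both ctrl. libraries, with the third group of each overlapping them.

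Stat5a and Stat5b, which lie next to each other, shared a site at 98.2 and 79.8 for ctrl., 93.8 and 91.4 for cal. res. and 97.5 and 97.3 for CORT, with FOXO1 at 82.6. Igfbp6 had one 42.0 kb downstream of its start, at 97.9 and 80.9 for ctrl., 93.8 and 89.6 for cal. res. and 97.0 and 97.7 for CORT, with FOXO1 at 77.4. CORT lay above cal. res. at both, with ctrl. spanning them. Igfbp3 lies beside Igfbp1, and all 5 of its sites were already counted for Igfbp1. Likewise, all 3 sites of Igfbp5 were already counted for Igfbp2. Insr, the insulin receptor gene, had 20 sites, of which 3 had a peak in every library and a FOXO1 region. The site with the highest mean among these 3 stood at 81.8 and 6.51 for ctrl., 75.5 and 90.9 for cal. res. and 65.1 and 81.5 for CORT.

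The genes whose best percentile in each library was nearest to that of each of the 6 were named by the largest difference over the 6 libraries. For Igfbp4 these were Iqgap2 (at most 0.263 points apart) and Ccnf (0.281). For Igfals they were Rtn4rl2 and Slc43a1, and for Igf1 Ggh and Ttpa, each pair with equal values in every library and at most 0.408 and 0.582 points away. Genes whose best site is near the top of every list are close to each other on this measure by construction. For Igfbp1 they were Dpy19l1 (1.91) and Rabgef1 (1.91), for Igfbp2 Sgo1 (3.79) and Aspdh (3.96), and for Ghr 1190005I06Rik and Cox4i1 (4.47 each).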

How the data were processed

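GR peaks were analysed in 6 mouse liver libraries grouped by their titles (ctrl., cal. res. and CORT, 2 each), with 1 FOXO1 list pooled by the authors from 2 cal. res. libraries. Per the methods, the authors aligned paired reads to mm10 with BWA, removed duplicates with Picard, called peaks with MACS2 per GR library and removed blacklisted regions with bedtools. Whether an input control was used is not given in the sources used here. Fold enrichment as deposited is a ratio, the pileup at the summit over that of the local background, and can be compared only within a list. P-values and q-values were deposited on the -log10 scale. The largest q was close to 0.1 in the GR lists and 9.84e-06 in the FOXO1 list, so the lists differ in stringency.

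Rows with equal start and end were reduced to the highest summit. Regions sharing 1 bp were merged into sites, and genes came from GENCODE M21 (basic set). All 166791 regions tested lay within the chromosome lengths of the reference, GRCm38. RefSeq promoters were trimmed before the first annotated exon base within their window, and short remainders were dropped. Promoters of 5 of the 6 genes were left. Summit fragments were rebuilt from fold and p, with fold = (pileup + 1) / (background + 1). Ranks were tested with limma over 3 groups and Benjamini-Hochberg adjustment, and regions per 1000 with exact permutation tests, both two-sided. The methods were tested on simulated data as a check of the code. How many true differences they would find at the spread of these libraries is not reported here. The limma p-values rest on a spread between libraries that was pooled over the 3 groups and moderated over 8097 sites. The permutation p-values count regroupings of the libraries. Every gene was described by its leading site, its leading FOXO1 site, the site nearest the start and the sites held by 1 or 2 groups. Of the other pathway genes, the 6 whose best FOXO1-overlapped site ranked highest were named (Stat5a and Stat5b share theirs), and Insr was added after its values were seen. The genes, lists and rules were chosen with earlier results of these data known. Analyses used Python 3.11.15, pandas 2.3.3, SciPy 1.17.1, pysam 0.24.0, matplotlib 3.10.9, R 4.3.3 and limma 3.58.1.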

Additional observations from a re-analysis of the deposited data

How the results depend on the processing

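Numbers of sites depended on how many regions a list held. With GR peaks of q at most 1e-05, ctrl. held 17 sites and CORT 29, cal. res. gained 15 over ctrl. and CORT 13, and FOXO1 overlapped 42% of the sites. With every list shortened to its 12458 regions of smallest p, CORT held 22 and gained 2, and FOXO1 overlapped 48.8%. With an overlap of 50% of the smaller interval, cal. res. gained 14. In a window of 20 kb ctrl. held 17 sites, CORT 26 and cal. res. 18, and cal. res. gained 2 and CORT 10. In a window of 100 kb they gained 11 and 32. Where a peak in either library was enough, ctrl. held 54. Leaving out each library in turn, ctrl. held 31 to 52 sites (52 without ctrl. library 2), cal. res. 35 to 40 and CORT 50 to 68, cal. res. gained 1 to 11 and CORT 9 to 37, the lowest values again without ctrl. library 2, and FOXO1 overlapped 25.9% to 27.3%. CORT gained 37 sites without CORT library 1 and 32 without CORT library 2, and cal. res. gained 11 without cal. res. library 1 and 10 without cal. res. library 2, settings in which a single library was enough to hold a site. Against ctrl. library 2 alone, which shares its name style, cal. res. gained 8 sites, and against ctrl. library 1 alone, which shares theirs, the CORT libraries gained 9. In regions per 1000, cal. res. minus ctrl. turned to -0.661 without ctrl. library 1 and CORT minus ctrl. to 0.454 without ctrl. library 2, within ranges of -0.661 to 0.896 and -1.10 to 0.454, while cal. res. minus CORT ranged from 0.230 to 0.655. With the replicate block those differences were the same, 0.117, -0.325 and 0.443 (exact permutation p = 1, 1 and 0.5, where 2 pairs cannot go below 0.5). In their titles the libraries share only a replicate number. Deviations of same-numbered libraries over the 8097 sites correlated at -0.097 (cal. res. and ctrl.), -0.132 (CORT and ctrl.) and 0.120 (cal. res. and CORT). These values cannot show whether same-numbered libraries were processed together. The block changed no other call: limma called 0 sites of the 6 genes under the replicate block, under a crossed pairing of the ctrl. numbers (chosen after seeing the data), and under every other alternative run, including the library name style as a term. The 8 site differences given were chosen for a small unadjusted p. Their directions were the same in 48 refits without a library and 67 other refits, but sizes moved. Without cal. res. library 1, the Igfals difference at 20.69 kb was -18.5 points from ctrl. (-35.1 with it) and -25.5 from CORT (-42.3 with it). Without cal. res. library 2, the Igf1 start was 49.4 points above ctrl. (32.1 with it). The Ghr site at -24.75 kb differed by 15.7 points between cal. res. and CORT with name style as a term (33.8 without), and the Ghr site at -35.01 kb by -20.1 between CORT and ctrl. with q at most 1e-05 (-35.6 otherwise). Mean percentiles of the leading sites moved by more than the replicate SD in 36 of the alternatives that kept all libraries, chiefly with shortened lists. The Ghr level in CORT was 43.6 in lists of equal length (78.9 in full lists). With the 50% overlap the long Igfbp4 site was split, and the piece nearest its centre stood at 51.2 in CORT (99.5 unsplit), with no value for the other groups. The cause of these changes was not tested beyond what each alternative removes.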
